A study of Homo sapiens with 2 samples.

Results

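The 4 ID genes (ID1, ID2, ID3, ID4) and 6 genes tied to feedback in transforming growth factor beta (TGF-beta) and bone morphogenetic protein (BMP) signalling (SMAD6, SMAD7, PMEPA1, SKIL, BAMBI, LTBP2) were followed in an Ewing sarcoma line before and after adaptation to radiation. They were taken by symbol from the annotation of the array's probes, which held all 10 genes with 17 probes, of 20046 named genes and 47323 probes in all. The cells were SK-ES1, a line that carries a fusion of EWSR1 with FLI1, as wild type cells (1 array) and as a radiation-adapted derivative (1 array) whose label bears the value 4 Gy. Total RNA was hybridised to Illumina expression BeadChips. The labels state neither the schedule of the irradiation, nor the interval between radiation and harvest, nor the number of clones. With 1 array in each group there was no spread between replicates, so every difference below is a difference between these arrays, with no test.

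Ligands of the TGF-beta superfamily bind paired receptor kinases at the cell surface, which phosphorylate SMAD proteins. TGF-beta and activin act mainly through SMAD2 and SMAD3, BMPs through SMAD1, SMAD5 and SMAD9, and both groups of SMADs enter the nucleus with SMAD4. The ID genes are early transcriptional targets of BMP signalling, and their products are helix-loop-helix proteins without a DNA-binding region that capture E proteins and so hold back differentiation. Several further targets switch the pathway off again: inhibitory SMADs at the receptor, a decoy receptor at the membrane, and corepressors in the nucleus.

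In the radiation-adapted cells ID1, ID2, PMEPA1, BAMBI and SMAD6 had signals between 1.72-fold and 2.47-fold higher than in wild type cells, and ID4 was detected there alone. ID3 went the other way and was 1.37-fold lower. SMAD7 differed little, LTBP2 was detected in wild type cells alone at a signal close to the detection limit, and SKIL was detected in neither line. A gene was called detected with a detection p-value, set against the negative controls of its own array, under 0.01. Ratios are of log2 signals after background correction and quantile normalization, radiation-adapted minus wild type, and each gene is read from its brightest probe.

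Of the 9 detected genes 7 had a ratio above 0, beside 46.6% of the 10189 detected genes of the array. Measured ratios reached 2-fold upwards for 3 of them (ID4, PMEPA1 and ID1), beside 4.02% of all detected genes, and downwards for 1 (LTBP2), beside 2.07%. At 1.5-fold the counts were 6 and 1, beside 12.5% and 9.59% of all detected genes. Of the 7 genes detected on both arrays 6 were above 0 and 2 reached 2-fold upwards, beside 46.9% and 2.77% of all genes so detected. The median log2 ratio was 0.85 over the 9 genes and -0.04 over all detected genes. ID4 and LTBP2 were each detected on 1 array. At their bounds, explained below, 2 of the genes were at least 2-fold higher (2.93% of all genes) and 0 at least 2-fold lower (1.37% of all genes). The genes were chosen with earlier results of these arrays known, so these counts describe the list and test nothing. For all genes the counts at 2-fold were 410 higher and 211 lower. Without background correction they were 108 and 28, and 0 of the ID and feedback genes reached 2-fold in either direction; with a larger offset of 50 in the normalization 1 did, PMEPA1. A bulk signal cannot tell fewer cells that express a gene from less RNA in each cell.

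**Figure D1:**
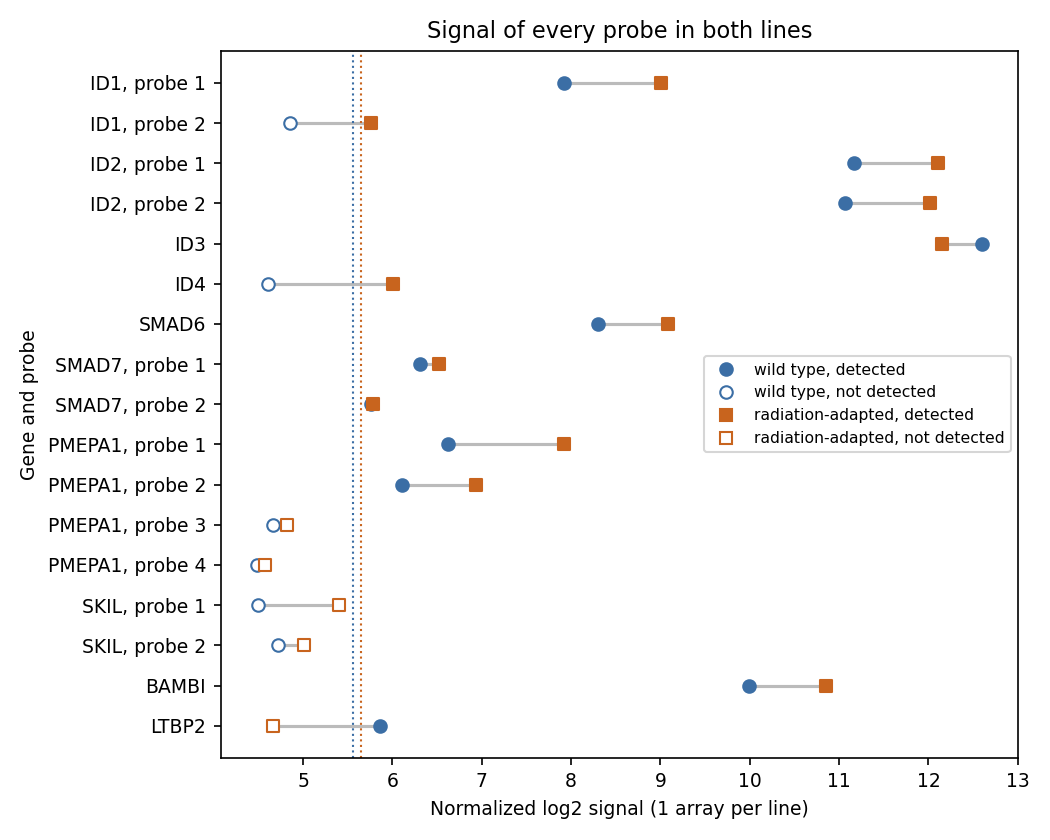
Normalized log2 signal (horizontal axis) of each of the 17 probes in wild type cells (circles) and radiation-adapted cells (squares), 1 array each, with open symbols for probes not detected and dotted lines at the lowest detected signal of each array. The pairs of ID1, ID2, SMAD6, BAMBI and the upper PMEPA1 probes are shifted to the right in radiation-adapted cells and the ID3 pair to the left, while the SMAD7 pairs nearly coincide.

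The spread that these arrays do allow to be seen is that between probes of one gene. Over 2567 genes with a second detected probe, the log2 ratios of the 2 brightest probes differed with an SD of 0.466. This SD was 0.674 where the dimmer probe had a mean log2 signal under 6, 0.452 from 6 to 8, 0.354 from 8 to 10 and 0.283 from 10 upwards. It holds measurement error and isoform differences and says nothing of the spread between cultures. The ratios of bright genes such as ID2, ID3 and BAMBI are therefore better measured than those of ID4 and LTBP2.

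ID1 is a direct BMP target whose product binds E proteins. Its brighter probe (ILMN_1664861) had a raw signal of 346.1 in wild type cells and 636 in radiation-adapted cells. After normalization the log2 signals were 7.92 and 9.01, a log2 ratio of 1.09 or a 2.13-fold higher signal. Among the 3275 genes of like signal (mean log2 from 8 to 10), 2.17% had a ratio as high. The second ID1 probe (ILMN_1665832) was dim, at 136.7 in wild type cells, where its detection p-value of 0.155 was above the limit, and at 168.5 in radiation-adapted cells, where the detection p-value was 0.00649. By its bound, its signal divided by the lowest detected signal of wild type cells, it was at least 1.15-fold higher.

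ID2, whose product also restrains neural and lymphoid differentiation, gave the closest repeat. The first probe (ILMN_2086095) read 2351 in wild type and 4568.2 in radiation-adapted cells, and the second (ILMN_1793990) read 2208.8 and 4343. Their log2 ratios were 0.93 and 0.95. Both probes thus put ID2 just under 2-fold, at 1.91-fold for the first, and 3.54% of the 1923 genes with a mean log2 signal of 10 or more had a ratio as high as the first.

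ID3, which like ID1 responds to BMPs and to mitogens, was read by 1 probe (ILMN_1732296), at 6162.5 in wild type cells and 4738.9 in radiation-adapted cells. The log2 ratio was -0.45, a 1.37-fold lower signal, and 7.75% of the genes of like brightness had a ratio as low. The log2 ratio of ID1 exceeded that of ID3 by 1.55 and the log2 ratio of ID2 exceeded it by 1.39. For scale, the SD between probes of one gene was 0.283 to 0.354 at these signals; the spread between cultures is not known. No second ID3 probe was there to repeat the value.

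ID4, the member of the family most tied to neural and glial precursors, was at the level of the negative controls in wild type cells, with a raw signal of 128 and a detection p-value of 0.430. In radiation-adapted cells it read 179.6 with a detection p-value listed as 0. For a gene detected on 1 array the bound is its signal where detected, divided by its own signal on the other array or by that array's lowest detected one, whichever is higher. By this bound ID4 was at least 1.37-fold higher, against 2.65-fold by the measured ratio. The bound holds no allowance for measurement error, and 3.56% of genes as dim had a measured ratio as high.

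The promoters of the ID genes are shown because the 4 paralogs differed in direction. They are the 250 bases before the start of each gene in RefSeq's table for build GRCh38.p14, 5′ to 3′ along the gene's strand. Capitals mark matches, on either strand, to the palindromic SMAD-binding element GTCTAGAC, the shorter SMAD motif CAGAC, the GC-rich motif GGCGCC bound by BMP-activated SMADs, the EGR1 motif GCGGGGGCG or the cAMP response element TGACGTCA.
ID1, chr20:31605039-31605288, plus strand: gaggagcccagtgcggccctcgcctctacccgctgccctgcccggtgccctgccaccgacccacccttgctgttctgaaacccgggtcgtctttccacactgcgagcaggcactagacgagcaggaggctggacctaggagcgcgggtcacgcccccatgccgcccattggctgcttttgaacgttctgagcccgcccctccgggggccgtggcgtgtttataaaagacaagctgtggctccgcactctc
ID2, chr2:8681806-8682055, plus strand: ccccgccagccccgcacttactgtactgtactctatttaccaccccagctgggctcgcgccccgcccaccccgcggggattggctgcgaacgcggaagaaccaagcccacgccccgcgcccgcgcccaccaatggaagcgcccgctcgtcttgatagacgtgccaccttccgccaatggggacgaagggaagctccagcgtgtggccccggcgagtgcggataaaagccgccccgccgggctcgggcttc
ID3, chr1:23559502-23559751, minus strand: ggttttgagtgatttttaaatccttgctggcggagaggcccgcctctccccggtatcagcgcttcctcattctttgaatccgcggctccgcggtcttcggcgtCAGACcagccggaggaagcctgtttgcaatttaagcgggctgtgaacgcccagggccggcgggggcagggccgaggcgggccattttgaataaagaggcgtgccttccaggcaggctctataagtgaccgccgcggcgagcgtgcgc
ID4, chr6:19837120-19837369, plus strand: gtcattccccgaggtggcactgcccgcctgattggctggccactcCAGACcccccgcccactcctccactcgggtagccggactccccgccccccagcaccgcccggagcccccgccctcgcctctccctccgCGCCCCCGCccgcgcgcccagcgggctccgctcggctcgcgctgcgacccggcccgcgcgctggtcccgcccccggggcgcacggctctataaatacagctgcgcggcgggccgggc

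No match lay in the windows of ID1 and ID2. The ID3 window held 1 CAGAC, from 147 to 143 bases before the start. The ID4 window held 1 CAGAC, from 205 to 201 bases before the start, and 1 EGR1 motif on the opposite strand, from 117 to 109 bases before it. Of 35116 windows of this length in the table, 38.0% held CAGAC and 4.72% the EGR1 motif. Enhancers farther away lie outside these windows, and a match is a run of letters, not a bound site.

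SMAD6 and SMAD7 are the inhibitory SMADs. SMAD6 acts chiefly on BMP receptors, whereas SMAD7 blocks both branches and brings ubiquitin ligases to the receptors. The SMAD6 probe (ILMN_1767068) read 417.1 in wild type cells and 660.7 in radiation-adapted cells, a log2 ratio of 0.79 or 1.72-fold. Of genes of like signal, 5.4% had a ratio as high. The brighter SMAD7 probe (ILMN_2203891) read 187.7 and 207.8, with a log2 ratio of 0.21, and the dimmer one (ILMN_2203896) read 163.7 and 169.3, with a log2 ratio of 0.02. Both SMAD7 probes were detected on both arrays, close to the lowest detected raw signals of 156.9 and 164.6. The SMAD6 ratio exceeded that of the brighter SMAD7 probe by 0.58 on the log2 scale. For scale, the SD between probes of one gene was 0.354 at the signal of SMAD6, and 0.452 and 0.674 at those of the SMAD7 probes.

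BAMBI is a transmembrane decoy that resembles a type I receptor but lacks the kinase. Its probe (ILMN_1691410) was bright, at 1123.3 in wild type and 1985.3 in radiation-adapted cells. The log2 ratio was 0.85, a 1.81-fold higher signal, and 4.06% of the genes with a mean log2 signal of 10 or more had a ratio as high.

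The windows before SMAD6 and BAMBI are shown because the former held the rarest motif and the latter the most matches among the windows of these genes. They were picked after the matches were seen, so the shares below are a description only. Capitals are as above.
SMAD6, chr15:66701986-66702235, plus strand: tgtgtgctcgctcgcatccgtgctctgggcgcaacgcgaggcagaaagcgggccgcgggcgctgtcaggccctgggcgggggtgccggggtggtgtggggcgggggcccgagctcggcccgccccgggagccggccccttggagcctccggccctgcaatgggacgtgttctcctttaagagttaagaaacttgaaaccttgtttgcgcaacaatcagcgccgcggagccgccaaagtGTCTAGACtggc
BAMBI, chr10:28677271-28677520, plus strand: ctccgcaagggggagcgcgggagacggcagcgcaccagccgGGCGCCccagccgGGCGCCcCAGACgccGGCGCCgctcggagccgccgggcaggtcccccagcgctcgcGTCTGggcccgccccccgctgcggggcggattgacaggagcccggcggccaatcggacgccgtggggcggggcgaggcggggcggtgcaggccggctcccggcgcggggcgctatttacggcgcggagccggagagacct

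The SMAD6 window held the palindrome GTCTAGAC from 12 to 5 bases before the start, a match found in 64 of the 35116 windows (0.182%). The BAMBI window held GGCGCC at 3 places, starting 209, 196 and 181 bases before the start, and CAGAC at 2. A GGCGCC was present in 16.4% of all windows and 3 or more, a limit set by BAMBI's own count, in 0.527%. BAMBI's window was also the richest in G and C of the 15 windows that the table gives for the 10 genes, at 81.2%, with a median of 66% over the 15 and 58% over all windows. A motif of G and C alone is met more often in such sequence. Over the 15 windows CAGAC was present in 8, GGCGCC in 4, and GTCTAGAC, the EGR1 motif and TGACGTCA in 1 each.

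PMEPA1 encodes a membrane protein that binds SMAD2 and SMAD3 and keeps them from the receptor, and it is a strong TGF-beta target in many cells. The brighter of its 4 probes (ILMN_1734276) read 206.3 in wild type cells and 362.8 in radiation-adapted cells. The log2 ratio was 1.30, a 2.47-fold higher signal, and 2.18% of genes of like signal had a ratio as high. A second probe (ILMN_2309156), which the annotation assigns to the same transcript, read 177.6 and 239, with a log2 ratio of 0.82. The gap of 0.48 between these probes is close to the SD between probes of one gene at such signals. The remaining 2 probes, assigned to other transcripts, were not detected on either array, with raw signals from 121.9 to 138.

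SKIL encodes SnoN, a corepressor that TGF-beta first degrades and then induces. The detection p-values of both its probes were above 0.01 on both arrays, and the gene was therefore not counted. The first (ILMN_2098119) read 122.8 in wild type cells (detection p-value 0.644) and 155.8 in radiation-adapted cells (0.0182), and the second (ILMN_1736834) read 132.4 and 143.9. Both readings were higher in radiation-adapted cells, by 33 and 11.5 raw units, but no fold is given for signals at the level of the negative controls.

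LTBP2 belongs to the latent TGF-beta binding proteins but, unlike its relatives, is not known to bind latent TGF-beta and serves in elastic fibres. Its probe (ILMN_3248591) read 167.6 in wild type cells, with a detection p-value of 0.0026, and 132.2 in radiation-adapted cells, with a detection p-value of 0.283. It was at least 1.16-fold lower by its bound and 2.31-fold lower by measured ratio. Its relatives LTBP3 (0.65) and LTBP4 (0.67, with another probe at 0.20), which do bind latent TGF-beta, had log2 ratios above 0.

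**Figure D2:**
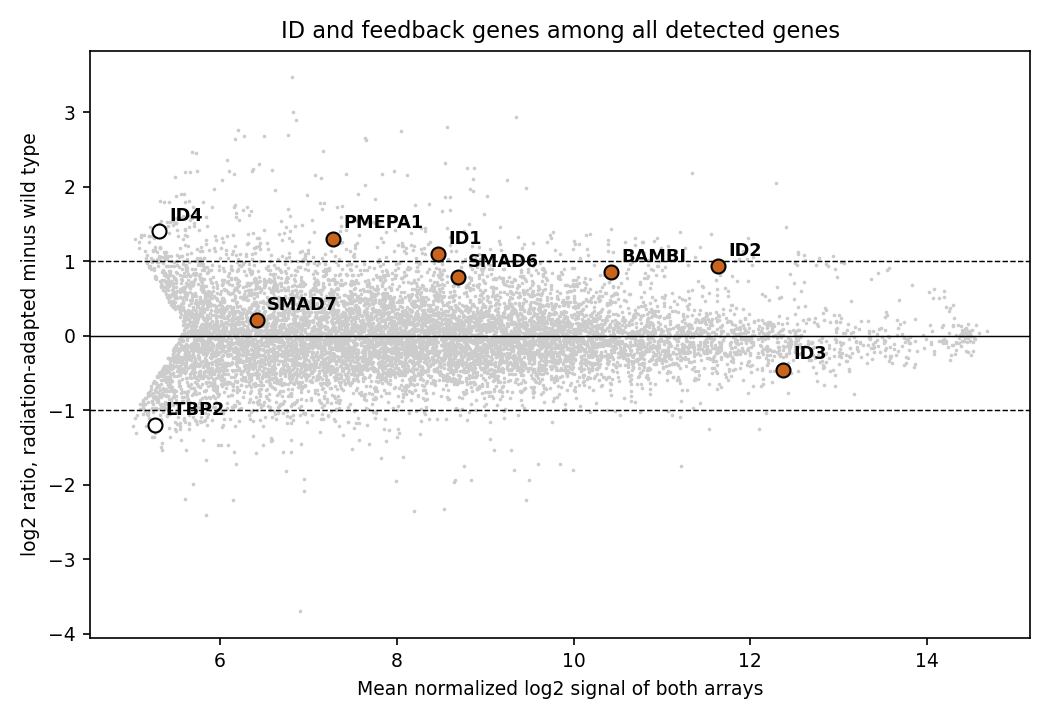
Log2 ratio, radiation-adapted minus wild type (vertical axis), against mean normalized log2 signal (horizontal axis) for the 10189 detected genes (grey), with the 9 detected ID and feedback genes in orange, or white where detected on 1 array. Dashed lines mark 2-fold. PMEPA1, ID1, SMAD6, BAMBI and ID2 lie in the upper part of the cloud, and ID4 and LTBP2 lie at its dim end. For the former, from 2.17% (ID1) to 5.4% (SMAD6) of genes of like signal had ratios as high.

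The genes lie on 9 chromosomes, with ID1 and PMEPA1 both on chromosome 20. To see whether their surroundings were shifted, the 20 nearest protein-coding genes detected on both arrays, 10 to each side in RefSeq's order, were read. The median log2 ratio of these neighbours ran from -0.29 (BAMBI) to 0.13 (ID1), with a median of -0.02 over the 10 genes. At ID2 it was 0.03 and at PMEPA1 -0.11. Of the 20 neighbours 15 were above 0 at ID1 and 4 at BAMBI, beside 46.9% of all genes detected on both arrays. From 0 to 2 neighbours of each gene were at least 2-fold higher, with 2 at ID1 and at SMAD7, beside 2.77% of all such genes. A median over 20 genes tends to lie near 0 and cannot be set against the ratio of 1 gene. Whether the surroundings bear on the ratios was not tested.

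The rest of the pathway was read by role, from lists of known components. Of 31 ligand genes with a probe, 4 were detected, and all 4 had ratios above 0 and under 2-fold. These were GDF6 (log2 ratio 0.79), BMP6 (0.63), both BMP-type ligands, TGFB3 (0.40) and GDF11 (0.16, with another probe at -0.21). Of 16 receptor and co-receptor genes 10 were detected and 6 were above 0, with a median of 0.09. ENG, which encodes the co-receptor endoglin, was the 1 receptor gene at 2-fold: it read 370.2 in wild type and 827.4 in radiation-adapted cells, a log2 ratio of 1.41. The activin receptor gene ACVR2A was at -0.64.

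Of the signal-transducing SMADs 5 were detected and 1 was above 0, or 2 by the median of each gene's detected probes. SMAD2 (-0.06, wild type cells alone), SMAD4 (-0.05), SMAD5 (-0.11) and SMAD9 (-0.05, with another probe at 0.13) had small ratios. SMAD3, which carries the TGF-beta signal, read 264.8 and 376.2, a 1.62-fold higher signal (log2 ratio 0.69). Among latent complex genes and extracellular antagonists 11 of 14 detected genes were above 0, with a median of 0.41, or 0.28 when bounds replace the ratios of genes detected on 1 array. The proteoglycan genes BGN and DCN, whose products bind TGF-beta, were lower: BGN read 12168.9 and 7439 (1.73-fold lower) and DCN was 1.51-fold lower, with both other detected probes below 0. The summed normalized signal of the list was 15100 in wild type and 10700 in radiation-adapted cells, of which BGN gave 12200 and 7060. FSTL1, a secreted BMP-binding glycoprotein, was 2.49-fold higher. BMP1, a protease that cleaves the BMP antagonist chordin, and NOG, which encodes the antagonist noggin, were detected in radiation-adapted cells alone, at least 1.60-fold and 1.09-fold higher. Among intracellular regulators 9 of 21 were above 0, with a median of -0.02. RUNX3, a transcription factor that partners SMADs, was 2.06-fold higher and SMURF1, a ubiquitin ligase for BMP SMADs, was at 0.82.

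Further genes known to respond to these ligands had smaller medians than the ID and feedback genes. That ranking is a description only, since all these genes were chosen with earlier results of these arrays known. Of 8 detected BMP-responsive genes 5 were above 0, with a median of 0.29, and 2 were at least 2-fold higher (4.02% of all detected genes), or 0 without background correction. GATA2, a transcription factor, read 169.4 and 294.4 (log2 ratio 1.55), and ATOH8, a helix-loop-helix gene, read 208.6 and 355.5 (1.23). Of 14 detected TGF-beta responsive genes 9 were above 0, with a median of 0.26, or 0.13 with bounds. RHOB, a small GTPase gene that many stimuli induce, was 4.64-fold higher. The collagen gene COL1A2 was 2.14-fold higher by its brighter probe, but its other detected probe was at -0.06. No gene of either list was at least 2-fold lower by these ratios. Since only 2.07% of all detected genes were, a count of 0 is no result for lists this short. With the authors' processed values 1 gene of each list was at least 2-fold lower, neither of them detected on both arrays.

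**Figure D3:**
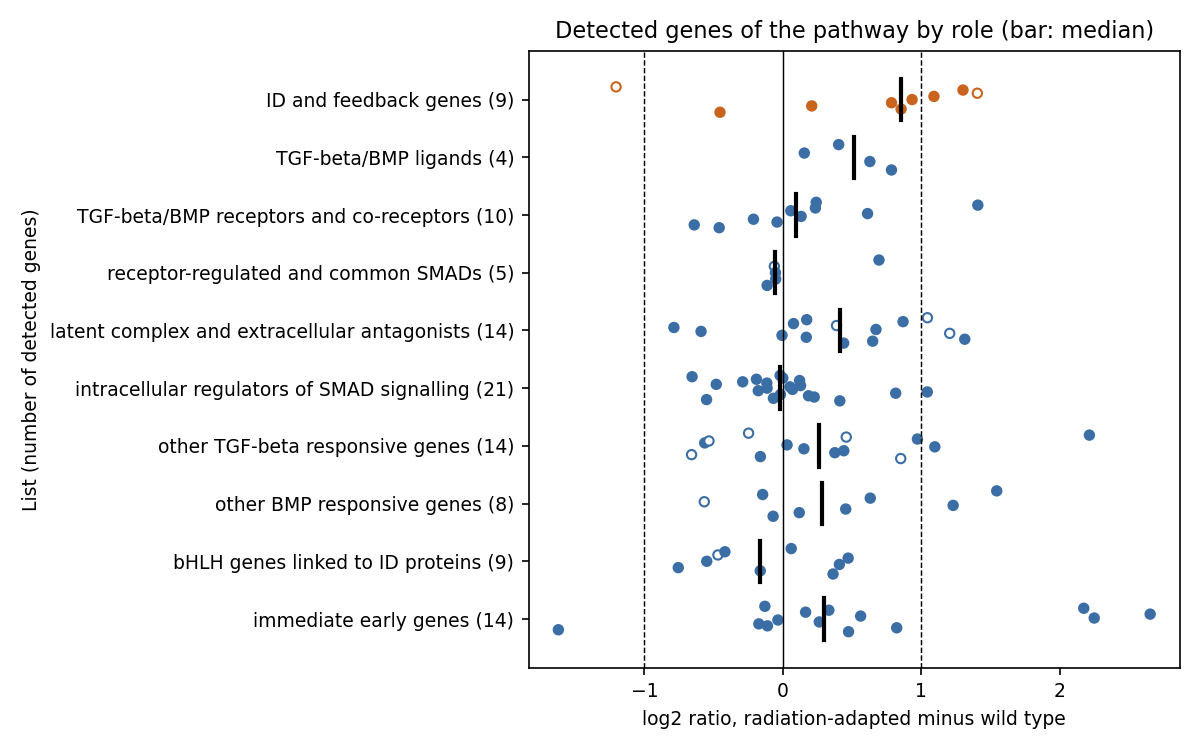
Log2 ratio, radiation-adapted minus wild type (horizontal axis), of each detected gene of the pathway by role, with the number detected in brackets, medians as black bars, open circles for genes detected on 1 array and dashed lines at 2-fold. The median of the ID and feedback genes is 0.85, and those of the other lists run from -0.16 to 0.52.

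Partners of ID proteins were listed together with genes linked to them, such as USP1. The median of this list was -0.16, below that of the ID and feedback genes. Of its 9 detected genes 4 were above 0, beside 46.6% of all detected genes, and none was at 2-fold. Since only 4.02% of all detected genes were at least 2-fold higher and 2.07% lower, a count of 0 is no result for a list this short. TCF3 (0.47), TCF4 (-0.42) and TCF12 (-0.55), the E proteins that ID proteins capture, did not share a direction. TCF12 had a second probe at -0.76. USP1, a deubiquitinase that stabilises ID proteins in osteosarcoma cells, read 1068.9 in wild type and 693.9 in radiation-adapted cells, a log2 ratio of -0.76 with a second probe at -0.84.

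Some of these genes also answer to serum and stress, and early response genes differed between the same arrays. Of 14 detected immediate early genes 9 were above 0, beside 46.6% of all detected genes, with a median of 0.30. Past 2-fold upwards lay FOS (2.65), EGR1 (2.25) and KLF2 (2.17), beside 4.02% of all detected genes. Past 2-fold downwards lay ATF3 (-1.62), beside 2.07%. The summed normalized signal of the 14 genes was 10600 in wild type and 15300 in radiation-adapted cells, or 6360 and 7820 without the brightest, JUND (0.82). The part of these genes in the ratios of the ID and feedback genes was not tested. Markers of Ewing sarcoma cells were detected for 11 of 11 genes with a probe on both arrays, with 9 above 0, a median of 0.40 and none at 2-fold. Their summed normalized signal was 32900 in wild type and 39500 in radiation-adapted cells, of which CCND1 gave 11100 and 15500. Without CCND1 the sums were 21800 and 24000. The log2 ratios of these markers ran from NKX2-2 (-0.68) to PAX7 (0.94, with another probe at -0.89). Whether this shift bears on the ID and feedback genes was not tested. Of 8 endothelial markers 1 was detected, EMCN, at -0.01. Of 12 fibroblast markers 7 were detected and 4 were above 0, with a median of 0.17. COL1A2 (2.14-fold by its brighter probe, with its other detected probe at -0.06) and THY1 (1.68-fold) were higher. PDGFRB (log2 ratio 0.29) and COL3A1 (0.17) were also above 0. DCN was 1.51-fold lower, with both other detected probes below 0, and FAP (-0.35) and VIM (-0.22) were also below 0. The summed signals of the fibroblast markers were 8750 in wild type and 8830 in radiation-adapted cells, of which VIM gave 6290 and 5390, and 2460 and 3440 without it. The part of these markers in the results was not tested. Leukocyte markers were detected for 4 of 11 genes, with 1 above 0. This was CD68, 1.86-fold higher by its brighter probe, with its other detected probe at -0.23. CORO1A was at least 1.43-fold lower. The summed signals of the leukocyte markers were 442 in wild type and 582 in radiation-adapted cells, or 200 and 132 without CD68. Epithelial markers were detected for 2 of 10, both below 0.

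**Figure D4:**
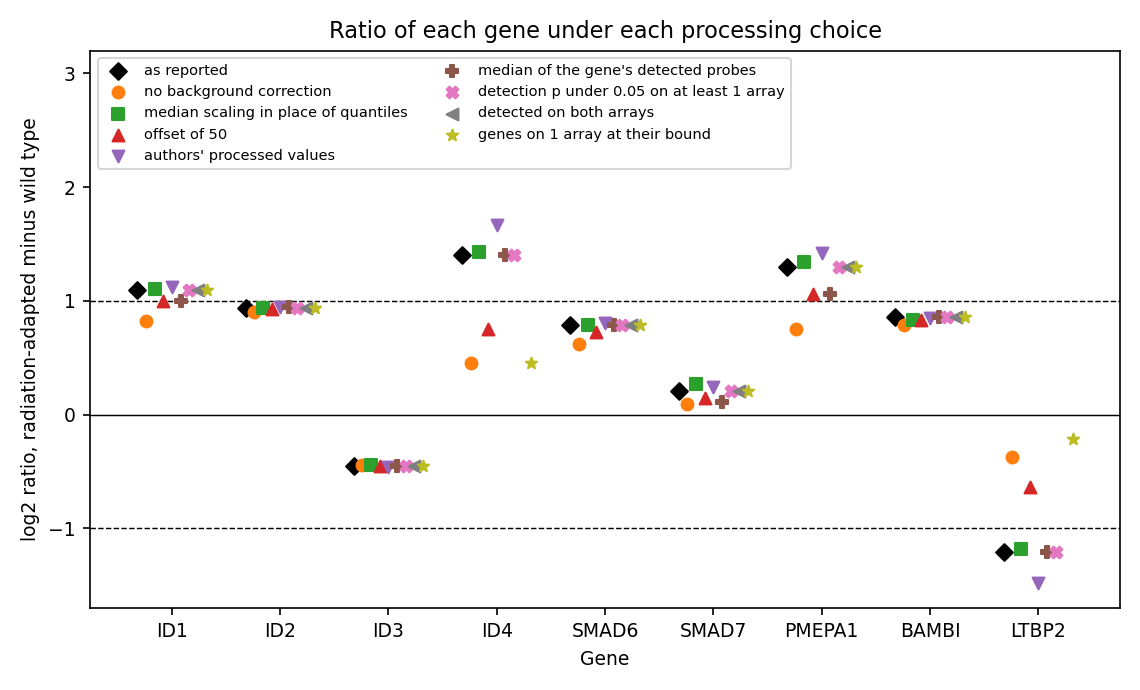
Log2 ratio, radiation-adapted minus wild type (vertical axis), of the 9 detected genes (horizontal axis) as reported (black diamonds) and under each other processing choice, with dashed lines at 2-fold. ID2, ID3 and BAMBI keep nearly the same value throughout, whereas ID4 ranges from 0.45 to 1.67 and LTBP2 from -1.48 to -0.21.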

How the data were processed

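Average bead signal intensities on a linear scale, neither background-subtracted nor normalized, and detection p-values per probe were deposited by the authors, per the file headers. RNA was extracted with Trizol and labelled with a TotalPrep kit, per the labels' protocols. The labels name neither scanner nor software. The authors' deposited processed intensities (both columns with a median of 10.6, from -28.6 to 27679.4) were read as linear and quantile-normalized, an inference from the values, and used only as an alternative.

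Raw signals were processed with neqc of limma 3.58.1 in R 4.3.3 (normexp fitted from the detection p-values, offset 16, quantile normalization, log2). The log2 ratio of ID4 was 1.41 after this processing and 0.45 without background correction. For LTBP2 these values were -1.20 and -0.38, and for PMEPA1 1.30 and 0.75. Later steps used Python 3.11.15, pandas 2.3.3 and NumPy 2.4.6. A single gene symbol was available for 30113 of the 47323 probes, several for 8 and none here for 17202. Names were updated through a RefSeq table of GRCh38.p14, which also gave gene order and promoters. The wild type and radiation-adapted arrays had 15887 and 15399 detected probes. The number of arrays limits the precision.

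The members and all lists were chosen with earlier results of these data known. The text names all members and, from each pathway list, up to 6 genes at 2-fold by size, or the 2 largest; marker genes, BGN, DCN, JUND, LTBP3, LTBP4, TGFB3, GDF11, SMAD2, SMAD4, SMAD9, TCF3 and TCF4 were added after their values were seen. No gene was sought for a like pattern, since with 2 arrays a pattern is 1 ratio. The normalization and the fold rule were tested on a simulated pair of arrays, with changes only in probes well above background. Changes in dim genes, the bounds, the choice of probe, the lists, the neighbours and the motifs were not part of that test. Listed genes without a named probe here were not analysed.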

Additional observations from a re-analysis of the deposited data

How the results depend on the processing

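No detected ID or feedback gene changed sign under the 7 other choices of normalization, probe or filter. The same held with bounds in place of the ratios of genes detected on 1 array, an alternative chosen after seeing the data. ID4 and LTBP2 drop out where detection on both arrays is asked. However, the choices of filter leave each ratio as it was. The choice of probe can move only genes with a second detected probe, and the bounds only genes detected on 1 array. Thus only the other normalizations could change the sign of every gene, and they rest on the same arrays. The ratio ran from 0.90 to 0.95 for ID2, 0.79 to 0.85 for BAMBI, -0.46 to -0.44 for ID3, 0.83 to 1.12 for ID1, 0.62 to 0.81 for SMAD6, 0.09 to 0.27 for SMAD7 and 0.75 to 1.42 for PMEPA1. The counts at 2-fold depended on the treatment of dim signals. Without background correction 0 of the genes were higher and 0 lower, their median was 0.62, all genes counted 108 higher and 28 lower, and the medians of the extracellular and TGF-beta responsive lists were 0.14 and 0.093. The BMP responsive list then had 0 genes at 2-fold. With an offset of 50, 1 of the ID and feedback genes was higher (PMEPA1) and 0 lower, all genes counted 213 and 70, and the extracellular list was at 0.26. With the authors' processed values all genes counted 633 and 464 and the extracellular list was at 0.58. With detection on both arrays required, 0 of the genes were lower, all genes counted 253 and 125, and the extracellular list was at 0.17. With a detection limit of 0.05 the extracellular list was at 0.20 and the ligand list at 0.16 over 11 genes and SKIL was counted. At 1.5-fold 6 of the genes were higher (12.5% of all genes) and 1 lower (9.59%), with 1272 and 977 for all genes. At the bounds 0 of the genes were lower, all genes counted 140 lower, and the extracellular and TGF-beta responsive lists were at 0.28 and 0.13. Fewer genes enter under a stricter filter, and a larger offset or no correction shrinks the folds of dim genes by construction; the cause of the other shifts was not tested. No paired analysis was possible because each group held 1 array.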
